A study of Mus musculus with 4 samples.

Results

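Genes of the extracellular matrix and of hepatic stellate cells were examined in mouse liver, as the 39 genes of a fixed list that were each found once by gene symbol among the 35275 genes of the deposited read count table. The list holds 13 collagen genes, 4 genes of the basement membrane, 7 genes of matrix glycoproteins and proteoglycans, 7 genes of remodelling enzymes and their inhibitors, and 8 genes of stellate cells and growth factors. The livers came from female mice that all carried the amyloidogenic Apoa2c allele. The labels name them as Apoa2c congenic mice of strain AKR/J, whereas the study's methods describe R1.P1-Apoa2c mice, which carry that allele on a SAMR1 background. Mice received AApoAII amyloid fibrils (F) or vehicle (V) through a tail vein and were then kept sedentary (S) or given high-intensity interval treadmill training (IT, I) for 16 weeks, which gave the groups VS, VI, FS and FI at 26 weeks of age. The livers of a group's 4 mice were combined before sequencing, so that 16 mice gave 4 libraries, 1 per group, and mouse-to-mouse variation is not measured.

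The hepatic matrix is a sparse scaffold in the space between hepatocytes and sinusoidal endothelium, together with the denser collagen of portal tracts. Stellate cells store vitamin A in the space of Disse and, when activated, turn into myofibroblasts that make fibrillar collagens, whereas basement membrane is built from type IV collagen, laminin, nidogen and heparan sulphate proteoglycans. Transforming growth factor beta and its target connective tissue growth factor drive matrix production, and metalloproteinases with their tissue inhibitors remodel the deposited matrix.

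The libraries held between 23442935 and 28814802 counts, and a floor of 3 counts corresponded to between 0.102 and 0.127 counts per 1000000 counts (CPM, scaled by edgeR's trimmed mean of M values). Stellate cell RNA was present in each library: none of the 10 defining stellate markers had 0 counts in any library. All 10 reached 1 CPM in at least 1 library. Their summed level was 184 CPM in VS and 155 in VI, against 165 in FS and 160 in FI. The VS library stood apart in skeletal muscle transcripts, with a sum over 13 muscle genes of 79.95 CPM against 10.4 in VI, 1.02 in FS and 0.827 in FI. In RNA of whole liver, fewer cells of a type and less RNA per cell cannot be told apart. The 95% intervals given here cover counting error only, since each group is 1 pooled library. PCR copies of a read could not be recognised, so the intervals may be too narrow even for counting error.

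Of the 39 genes, 35 reached 1 CPM in at least 1 library. The 4 genes below it throughout were Timp1, an inhibitor of metalloproteinases that is induced in fibrotic liver, the collagen crosslinking enzymes Lox and Loxl1, and the gelatinase Mmp2. Timp1 had 4 and 6 counts in the sedentary libraries VS and FS, and 0 and 1 in the trained libraries VI and FI. Lox had between 1 and 5 counts per library. Loxl1 had 15 counts in VS, 11 in FS, 7 in VI and 0 in FI, and Mmp2 had 22, 25, 15 and 9 counts in the same order. FI was the lowest library for both, and the counting interval of the log2 ratio in FI versus FS ended at -1.04 for Loxl1 and at -0.04 for Mmp2. For Timp1 and Lox a difference was not detectable at this depth.

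Levels of the genes spanned several orders of magnitude (plot of the level of each gene by library). Per length, as the mean over the 4 libraries of the deposited fragment counts scaled by gene length and depth (FPKM), Fn1 was at 185 FPKM and Col18a1 at 180. Both genes are made by hepatocytes as well, which secrete plasma fibronectin and collagen XVIII. The small proteoglycan Dcn (decorin) and the secreted glycoprotein Ecm1 followed with 63.3 and 60.9 FPKM, then Bgn (biglycan) with 20.6, Mmp14 with 15.2 and Sparc with 12.2. Of the fibrillar collagens, Col3a1 was at 1.16 FPKM and Col1a2 at 0.898, near the middle of the 39 genes, and Col1a1 was at 0.118, with only Loxl1 and Lox below it. Col1a1 and Col1a2 encode the chains of type I collagen, and the ratio of their FPKM was between 0.133 and 0.187 in VS, VI and FS and 0.0554 in FI, where Col1a1 had only 7 counts.

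**Figure D1:**
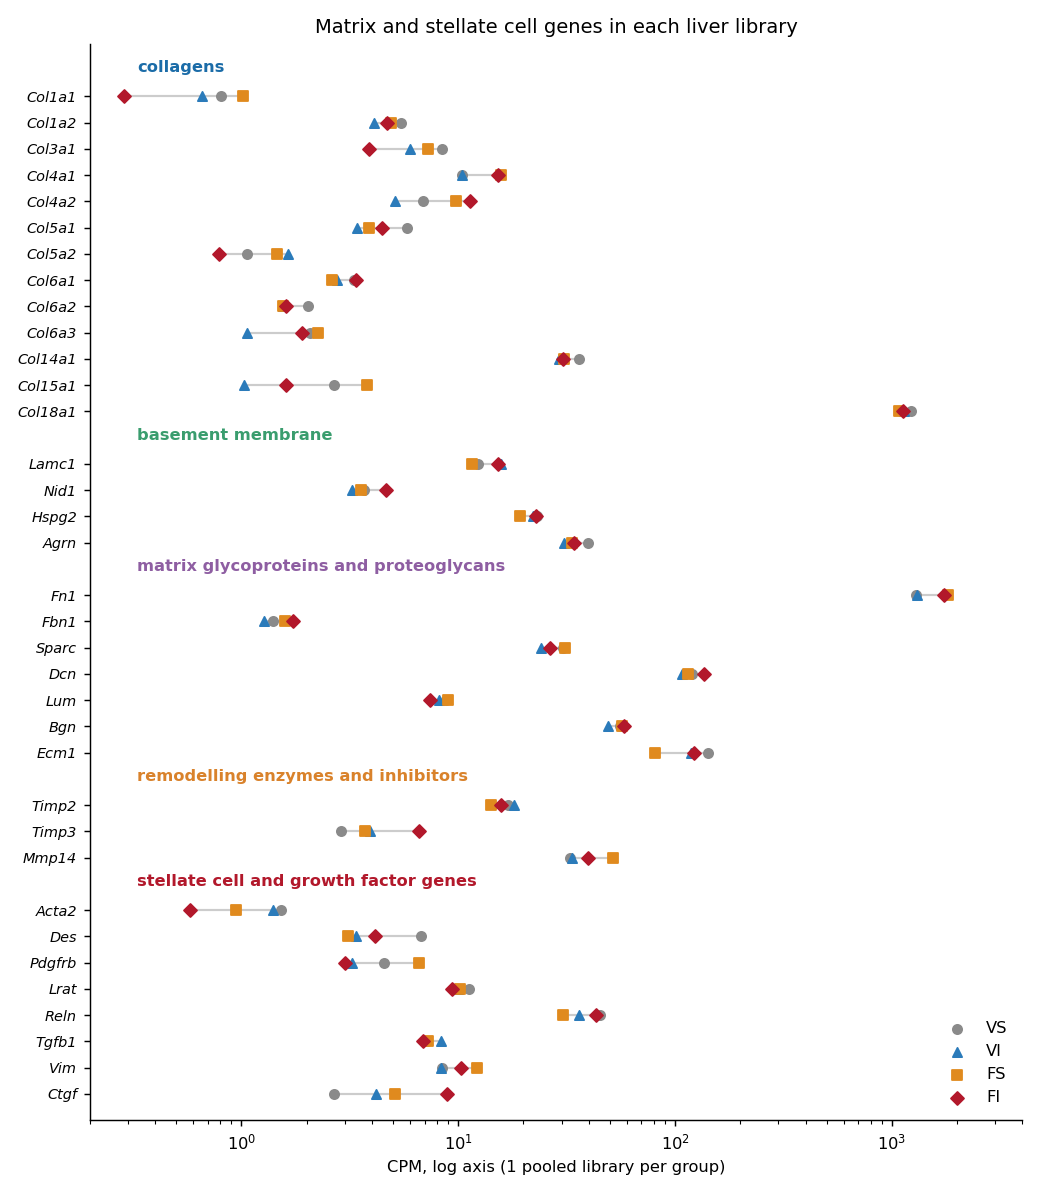
Level of each of the 35 genes with at least 1 CPM in 1 library, in CPM on a log axis, with 1 symbol for each pooled library and genes grouped by role. Col18a1 and Fn1 lie between 1083 and 1813 CPM in all 4 libraries, Col1a1 lies near or below 1 CPM, and the symbols of Ctgf, Timp3, Col15a1 and Pdgfrb are spread more widely than those of Dcn or Bgn.

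Differences between libraries were expressed as log2 ratios of CPM with a prior of 0.5 counts, over the 12180 genes with at least 1 CPM in 1 library. In FS versus VS, 1 of the 35 genes differed by more than 2-fold, against 5.8% of all genes, and 17 of 35 lay above 0, against 52%. In FI versus VI, 5 of 35 differed by more than 2-fold, against 4.54% of all genes, and 24 lay above 0, against 51.3%. In VI versus VS, 2 of 35 differed by more than 2-fold, against 3.44% of all genes, and 9 lay above 0, against 50.7%. The median log2 ratio of the list was -0.18 here, beside 0.00 for all genes. In FI versus FS, 3 of 35 differed by more than 2-fold, against 4.28% of all genes, and 18 lay above 0, against 50.2%. Col1a1, among the 3 beyond 2-fold, reached 1 CPM only in FS. The median of the list was -0.05 in FS versus VS (all genes 0.02), 0.20 in FI versus VI (all genes 0.01) and 0.02 in FI versus FS, and the last became -0.05 when libraries were scaled by total counts alone. FS versus VS and VI versus VS share the VS library, and FI versus VI and FI versus FS share the FI library.

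An additive model with terms for fibrils and for IT was fitted to all 4 libraries over 11760 genes with at least 1 CPM in 2 libraries, of which 34 were genes of the list. The model has 1 residual degree of freedom, which is the interaction of fibrils and IT, so a gene whose IT difference was unlike in vehicle and fibril mice has a large error. With edgeR's quasi-likelihood test and Benjamini-Hochberg adjustment, 1 of the 34 genes, Ctgf, passed an adjusted p of 0.05 for fibrils, against 4.97% of all genes, and it was higher, as were 2.81% of all genes. At an unadjusted p below 0.05 there were 8 of 34, against 21.4% of all genes, 7 of them higher with fibrils and 1 lower, against 10.8% and 10.5% of all genes. The lower gene, Acta2, reached 1 CPM only in the vehicle libraries, where it was high. For IT, 0 of the 34 passed with edgeR's quasi-likelihood test, DESeq2 or limma-voom, against 1.48% of all genes with edgeR. At an unadjusted p below 0.05 there were 7 of 34 for IT, against 14.7% of all genes, 3 of them higher and 4 lower, against 7.23% and 7.45% of all genes. At the adjusted threshold, counts of 1 and 0 of 34 genes are too few to set the list apart from all genes. Without a filter on low counts, 6 genes of the list were called for fibrils, among them Col4a1, Col4a2, Fn1, Mmp14 and Ctgf, and 4 for IT, which were Col3a1, Col15a1, Pdgfrb and Ctgf. With fibrils as the only factor and all 4 libraries kept, 8 genes were called by edgeR's quasi-likelihood test, against 585 with both factors. Of these 8, 0 were in the list. A fit without the VS library also has only 1 factor and leaves 1 library in an arm. In that fit the fibril calls given here were lost as well, which cannot be laid on VS alone.

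Ctgf rose with fibrils. It encodes connective tissue growth factor, a secreted matricellular protein, and lies on chromosome 10 from 24595442 to 24598683 on the plus strand of mm10 (ENSMUSG00000019997). Its level was 2.67 CPM in VS, 5.11 in FS, 4.19 in VI and 8.93 in FI. Both fibril libraries lay above both vehicle libraries, and within each of these pairs the IT library was the higher one. The log2 ratio was 0.93 for sedentary mice (FS versus VS, 95% counting interval 0.51 to 1.39) and 1.09 for trained mice (FI versus VI, 0.75 to 1.45). The additive model gave a log2 change with fibrils of 1.02 (SE 0.20, edgeR's quasi-likelihood adjusted p = 0.030). This call was lost with DESeq2 (adjusted p = 0.109) and with fibrils as the only factor (edgeR's quasi-likelihood adjusted p = 0.278). Without the VS library, in a fit that also has fibrils as its only factor, the log2 change was 0.74. For IT, the log2 ratio was 0.65 for vehicle mice (VI versus VS, 0.18 to 1.13) and 0.80 for fibril mice (FI versus FS, 0.50 to 1.11), and the model's log2 change was 0.74 (SE 0.20, edgeR's quasi-likelihood adjusted p = 0.147). The expression of Tgfb1, which encodes the ligand TGF-beta 1, was 7.20 and 8.33 CPM in the vehicle libraries VS and VI and 7.28 and 6.90 CPM in the fibril libraries FS and FI, so its fibril and vehicle libraries overlapped.

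Type IV collagen is the network-forming collagen of basement membranes, and its chains alpha 1 and alpha 2 are encoded head to head on chromosome 8, Col4a1 from 11198423 to 11312826 on the minus strand and Col4a2 from 11312805 to 11449287 on the plus strand of mm10. The 22 bases from which both genes start, chr8:11312805-11312826, are shown on the plus strand because transcription of the pair leaves from this point in both directions. Capitals mark a match to the GC box GGGCGG.
Col4a1 and Col4a2 shared start: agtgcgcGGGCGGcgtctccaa
Sequences here are of build GRCm38.p6. In the RefSeq promoter table of that build, 27 of the 39 genes were matched, with 30 promoter windows. GGGCGG occurred on either strand of the 250 bases before the start in 32.7% of 32851 promoters. The 22 bases shown are a shorter stretch that lies within both genes, so this share is not a background for them.

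Col4a1 was at 10.4 CPM in VS and 10.5 in VI, against 15.8 in FS and 15.3 in FI. Col4a2 was at 6.90 CPM in VS, 9.79 in FS, 5.09 in VI and 11.3 in FI. For both chains, each fibril library lay above each vehicle library. For Col4a1 the log2 ratio was 0.60 for sedentary mice (FS versus VS, 0.38 to 0.83) and 0.54 for trained mice (FI versus VI, 0.31 to 0.78), and for Col4a2 it was 0.50 (0.22 to 0.79) and 1.15 (0.84 to 1.47). Neither passed the threshold in the additive model, with a log2 change of 0.57 (SE 0.15, edgeR's quasi-likelihood adjusted p = 0.066) for Col4a1 and 0.82 (SE 0.20, adjusted p = 0.059) for Col4a2. The ratio of their FPKM, Col4a1 to Col4a2, was 1.47 in VS and 1.57 in FS, 2.0 in VI and 1.31 in FI, so that VI, the library with the least Col4a2, also had the most unequal pair.

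**Figure D2:**
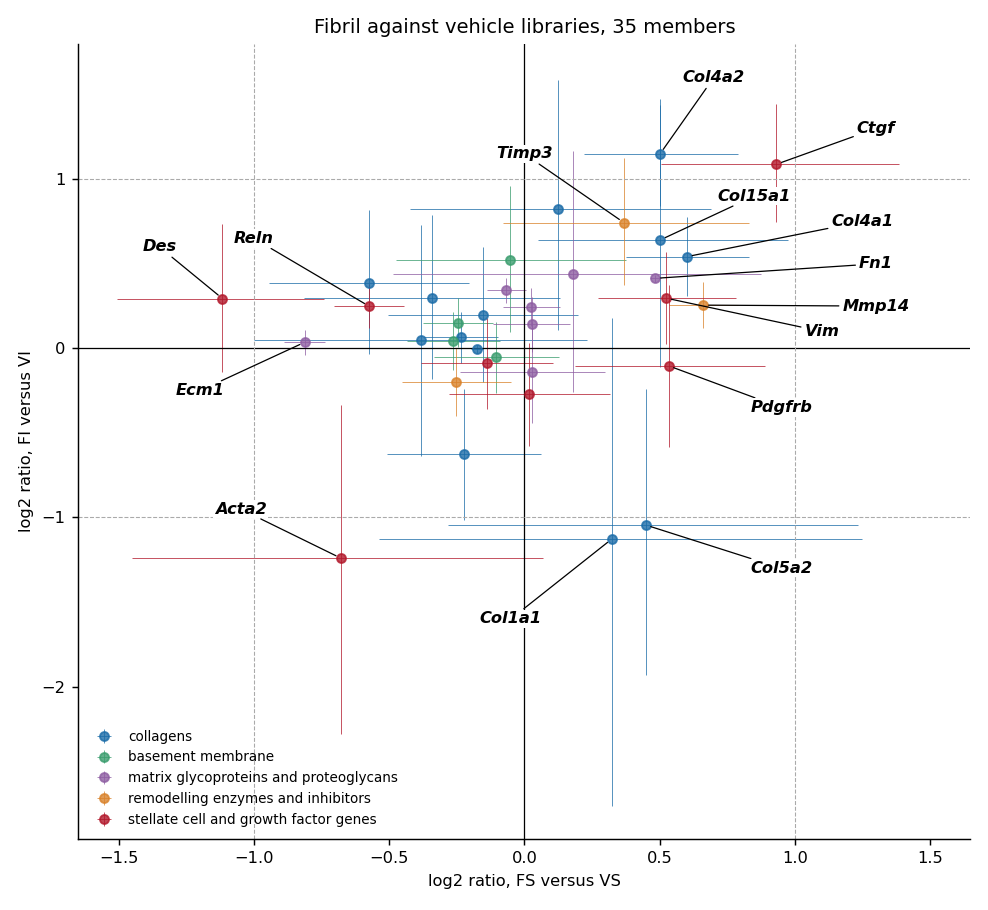
Log2 ratio of CPM for 35 genes in FS versus VS (horizontal) and in FI versus VI (vertical), with 95% counting intervals as lines, colours for the role of the gene and dashed lines at 2-fold. Ctgf, Col4a1, Col4a2, Fn1, Mmp14 and Vim lie to the upper right, whereas Des, Ecm1 and Reln lie to the left of 0 in FS versus VS only, and Col1a1 and Col5a2 lie below the lower dashed line in FI versus VI only.

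The other listed collagens did not share this pattern. Over the 13 collagens the median log2 ratio was -0.15 in FS versus VS and 0.20 in FI versus VI, with 6 and 9 of 13 above 0. Of these 13, only Col4a1 and Col4a2 had both fibril libraries above both vehicle libraries. Only Col18a1 had both below, with 1222 and 1132 CPM in the vehicle libraries VS and VI and 1083 and 1131 CPM in the fibril libraries FS and FI. Over all 35 genes both fibril libraries were above both vehicle libraries for 8, against 24.4% of all genes, and below for 3, against 22% of all genes. The 8 were Col4a1, Col4a2, Fn1, Fbn1, Bgn, Mmp14, Vim and Ctgf, and the 3 were Col18a1, Timp2 and Acta2. These are orders of levels alone, and Acta2 reached 1 CPM only in the vehicle libraries. The counting interval held 0 in FI versus VI for Col18a1 and Timp2, and in FS versus VS for Bgn and Acta2. For Fbn1 it held 0 in both comparisons.

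Col1a1 and Col5a2, which belong to fibril-forming collagens, were counted rarely, and their ratios had wide intervals. Col1a1 had 19 counts in VS (0.805 CPM) and 16 in VI (0.657 CPM), against 30 in FS (1.02 CPM) and 7 in FI (0.289 CPM). Col1a1 reached 1 CPM only in FS, so it passed the filter of 1 CPM in 1 library through its highest library. FI was the lowest and FS the highest, with a log2 ratio of -1.74 (-3.24 to -0.60) in FI versus FS and -1.13 (-2.71 to 0.18) in FI versus VI. Col5a2, a chain of the type V collagen that nucleates fibrils, was at 1.06 CPM in VS and 1.64 in VI, against 1.46 in FS and 0.785 in FI. FI was its lowest library, with a log2 ratio of -1.04 (-1.93 to -0.24) in FI versus VI and -0.87 (-1.75 to -0.08) in FI versus FS. Col5a1, the other type V chain, was highest in VS (5.80 CPM) and between 3.41 and 4.46 CPM in the other libraries. Col1a2 ranged from 4.10 CPM in VI to 5.46 in VS. The chains of the beaded filament collagen VI ranged from 2.61 to 3.39 CPM for Col6a1, from 1.56 to 2.03 for Col6a2 and from 1.07 in VI to 2.27 in FS for Col6a3. Of these, Col6a3 had a counting interval off 0 in VI versus VS, at -0.95 (-1.70 to -0.24).

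Most collagens were lower in VI than in VS. In that comparison, 11 of the 13 collagens were below 0, with a median of -0.38, and in FI versus FS, 8 of 13 were below 0, with a median of -0.05. All 10 defining stellate cell markers, of which 4 (Lrat, Reln, Pdgfrb and Des) are also among the 39 genes, were below 0 in VI versus VS as well, with a median of -0.28. VS is also the library with skeletal muscle transcripts, at a sum of 79.95 CPM against 10.4 in VI, and the part of either in the values of the collagens was not tested. Both IT libraries lay below both sedentary libraries for 10 of the 35 genes, against 17.3% of all genes, and above them for 2, also against 17.3% of all genes. Of the 10, 6 were collagens (Col1a1, Col1a2, Col3a1, Col6a3, Col14a1 and Col15a1), and the others were Sparc, Lum, Pdgfrb and Lrat. Col1a1 passed the filter only through FS, a sedentary library. Only Col3a1, Col15a1, Sparc and Pdgfrb among the 10 had counting intervals off 0 in both VI versus VS and FI versus FS. Col14a1, a fibril-associated collagen, was at 36.0 CPM in VS and between 29.1 and 30.7 in VI, FS and FI, with FS only just above the IT libraries.

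Of the 12 listed collagens that could be fitted, Col15a1 and Col3a1 had the smallest p for IT. Col15a1 encodes collagen XV of the zone between basement membrane and connective tissue and lies on chromosome 4 from 47208161 to 47313167 (plus strand). Its level was 2.67 CPM in VS, 3.79 in FS, 1.03 in VI and 1.61 in FI. Each IT library lay below both sedentary libraries, with a log2 ratio of -1.36 for vehicle mice (VI versus VS, -2.11 to -0.69) and -1.22 for fibril mice (FI versus FS, -1.80 to -0.70). The model's log2 change with IT was -1.29 (SE 0.29), which did not pass the threshold (edgeR's quasi-likelihood adjusted p = 0.078). Col3a1, the type III collagen of reticulin fibres, lies on chromosome 1 from 45311538 to 45349706 (plus strand) and was at 8.47 and 5.99 CPM in the vehicle libraries VS and VI and 7.25 and 3.89 CPM in the fibril libraries FS and FI. Its log2 ratio was -0.50 for vehicle mice (VI versus VS, -0.82 to -0.18) and -0.90 for fibril mice (FI versus FS, -1.27 to -0.54), with a log2 change of -0.69 in the model (SE 0.20, edgeR's quasi-likelihood adjusted p = 0.158).

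The 250 bases before the RefSeq starts of these genes are given because both were lower in IT libraries, on the plus strand and with motif matches in capitals. Motifs searched on both strands were the GC box GGGCGG, the CCAAT box CCAAT (in 33.8% of promoters), the TATA box TATAAA (12.4%) and the AP-1 motif TGANTCA (6.75%).
Col3a1, chr1:45311288-45311537: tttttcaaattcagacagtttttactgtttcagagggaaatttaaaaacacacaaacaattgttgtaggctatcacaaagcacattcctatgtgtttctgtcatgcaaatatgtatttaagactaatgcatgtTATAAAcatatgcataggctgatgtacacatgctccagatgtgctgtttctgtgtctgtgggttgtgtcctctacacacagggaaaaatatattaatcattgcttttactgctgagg
Col15a1, chr4:47207762-47208011: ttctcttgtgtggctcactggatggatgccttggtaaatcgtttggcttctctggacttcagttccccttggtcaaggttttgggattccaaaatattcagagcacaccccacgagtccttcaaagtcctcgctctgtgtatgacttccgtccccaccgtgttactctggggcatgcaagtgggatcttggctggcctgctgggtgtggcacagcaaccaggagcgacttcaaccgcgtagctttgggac
The Col3a1 window held 1 TATAAA match, and the Col15a1 window held none of the 4 motifs.

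**Figure D3:**
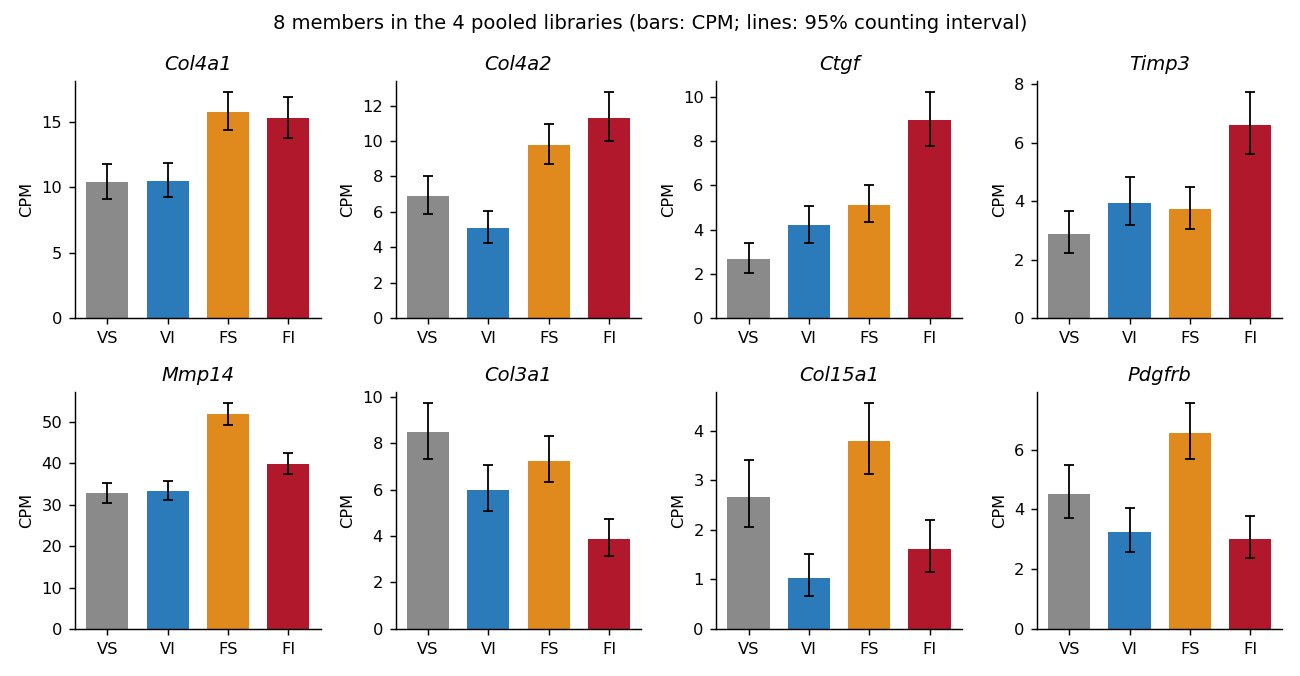
CPM of 8 genes in the 4 pooled libraries, with 95% counting intervals as lines. Col4a1, Col4a2 and Ctgf have both fibril bars (FS, FI) above both vehicle bars (VS, VI), Col3a1, Col15a1 and Pdgfrb have both IT bars (VI, FI) below both sedentary bars, and Timp3 is highest in FI with 6.61 CPM.

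The other 4 basement membrane genes encode the laminin gamma 1 chain (Lamc1), nidogen (Nid1), perlecan (Hspg2) and agrin (Agrn). None of these 4 followed type IV collagen, since all 4 lay below 0 in FS versus VS, with log2 ratios from -0.26 to -0.05, and 3 of 4 lay above 0 in FI versus VI, with log2 ratios from -0.05 to 0.52. All 4 were above 0 in FI versus FS. Lamc1 was at 12.4 CPM in VS and 15.8 in VI, against 11.6 in FS and 15.3 in FI. Both IT libraries lay above both sedentary ones, with log2 ratios of 0.35 (0.13 to 0.57) and 0.40 (0.18 to 0.62) and a log2 change with IT of 0.38 (SE 0.14, edgeR's quasi-likelihood adjusted p = 0.282). Nid1 ranged from 3.24 CPM in VI to 4.67 in FI, and Hspg2 from 19.3 CPM in FS to 23.1 in VS. Agrn was highest in VS with 39.8 CPM, against 30.8 in VI, 33.6 in FS and 34.2 in FI.

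Among glycoproteins and proteoglycans, Fn1 (fibronectin) was higher in fibril libraries. It was at 1296 CPM in VS, 1813 in FS, 1308 in VI and 1743 in FI, and VS and VI were close, as were FS and FI. The log2 ratio was 0.48 for sedentary mice (FS versus VS, 0.46 to 0.50) and 0.41 for trained mice (FI versus VI, 0.39 to 0.44), with a log2 change of 0.44 in the model (SE 0.14, edgeR's quasi-likelihood adjusted p = 0.109). Between 30613 and 53527 counts lay behind each of these values, so the counting intervals are narrow and leave out the unmeasured variation between mice and pools. Marker genes of Kupffer cells, the resident macrophages, moved alongside. Their sum over 12 genes was 334 CPM in VS and 401 in VI, against 516 in FS and 508 in FI. Of the 12, 3 were called higher with fibrils, against 2.81% of all genes. The sum of 19 acute phase genes was 23920 CPM in VS and 33210 in VI, against 52800 in FS and 53420 in FI. Of these 19, 10 were called higher with fibrils, also against 2.81% of all genes. The part of the Kupffer cell and acute phase genes in the differences of Fn1, Ctgf, Col4a1 and Col4a2 was not tested.

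Ecm1 and the glycoprotein gene Reln (reelin), which stellate cells express, had their lowest value in FS. Ecm1 was at 142 CPM in VS, 80.9 in FS, 119 in VI and 122 in FI. Reln was at 45.1 and 36.2 CPM in the vehicle libraries VS and VI and 30.3 and 43.1 CPM in the fibril libraries FS and FI. Both were lower in FS than in VS, at log2 ratios of -0.81 (-0.89 to -0.74) for Ecm1 and -0.57 (-0.70 to -0.44) for Reln, whereas in trained mice the log2 ratios were 0.04 (-0.04 to 0.11) and 0.25 (0.12 to 0.38). The difference between sedentary and trained mice was not tested, since it is the only residual of the model. Dcn was highest in FI with 136 CPM and between 107 and 120 CPM elsewhere. Sparc, a collagen-binding matricellular protein, was at 30.6 CPM in VS and 24.0 in VI, against 31.2 in FS and 26.5 in FI, lower in both IT libraries (log2 change -0.29, SE 0.12, edgeR's quasi-likelihood adjusted p = 0.326). Lum (7.40 to 8.94 CPM), Bgn (49.1 to 58.1) and the microfibril gene Fbn1 (1.27 to 1.74) had log2 ratios between -0.27 and 0.44 in all 4 comparisons.

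Remodelling genes that passed 1 CPM were Mmp14, Timp2 and Timp3. Mmp14 encodes a membrane-type metalloproteinase that cleaves fibrillar collagen and activates gelatinase A, and lies on chromosome 14 from 54431604 to 54441258 (plus strand). It was at 32.8 CPM in VS, 51.9 in FS, 33.4 in VI and 39.8 in FI. Both fibril libraries lay above both vehicle libraries, by a log2 ratio of 0.66 (0.54 to 0.79) in sedentary and 0.26 (0.12 to 0.39) in trained mice, with FS the highest. The model gave a log2 change of 0.45 (SE 0.13, edgeR's quasi-likelihood adjusted p = 0.094). The 250 bases before its RefSeq start, on the plus strand, are given as the promoter of the one protease among the genes higher in fibril libraries.
Mmp14, chr14:54431348-54431597: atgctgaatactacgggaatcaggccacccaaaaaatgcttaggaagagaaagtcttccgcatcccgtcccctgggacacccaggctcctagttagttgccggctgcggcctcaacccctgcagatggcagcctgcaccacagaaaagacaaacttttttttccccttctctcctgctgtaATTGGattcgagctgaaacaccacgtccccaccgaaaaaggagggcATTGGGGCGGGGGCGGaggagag
Capitals mark 2 matches to GGGCGG and 2 to CCAAT on the minus strand, of which one CCAAT match overlaps a GC box match.

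Timp3, an inhibitor of metalloproteinases that binds to matrix, was at 2.88 and 3.94 CPM in the vehicle libraries VS and VI and 3.73 and 6.61 CPM in the fibril libraries FS and FI. Its libraries with neither treatment and with both were the lowest and the highest. The log2 ratio was 0.83 (0.47 to 1.19) in FI versus FS and 0.74 (0.37 to 1.13) in FI versus VI, and the model's log2 change was 0.66 (SE 0.22, edgeR's quasi-likelihood adjusted p = 0.235) with IT and 0.56 (SE 0.22, adjusted p = 0.193) with fibrils. Timp3 exons share 1733 bases with Syn3 on the other strand, which had between 11 and 23 counts against between 68 and 160 for Timp3, and reads of the 2 genes cannot be told apart if counting ignored strand. Timp2 was at 16.9 CPM in VS and 18.1 in VI, against 14.2 in FS and 15.8 in FI, lower in both fibril libraries.

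Pdgfrb, the receptor for platelet-derived growth factor on stellate cells, was at 4.53 CPM in VS, 6.57 in FS, 3.24 in VI and 3.02 in FI. Both IT libraries lay below both sedentary libraries, with a log2 ratio of -0.48 (-0.92 to -0.05) in vehicle and -1.12 (-1.53 to -0.73) in fibril mice, and a log2 change of -0.81 in the model (SE 0.24, edgeR's quasi-likelihood adjusted p = 0.175). Lrat, the enzyme that esterifies retinol for storage in quiescent stellate cells, was at 11.2 and 9.97 CPM in the vehicle libraries VS and VI and 10.2 and 9.38 CPM in the fibril libraries FS and FI, a much narrower range. Acta2 (smooth muscle actin, the marker of myofibroblasts) had 36 counts in VS (1.52 CPM) and 34 in VI (1.40 CPM), against 28 in FS (0.948 CPM) and 14 in FI (0.579 CPM). It reached 1 CPM only in the vehicle libraries, so it met the filter of 1 CPM in 2 libraries through the group where it was high. Its order of libraries and its fitted change therefore depend on that filter. The fibril libraries were below the vehicle libraries for Acta2, at log2 ratios of -0.68 (-1.45 to 0.07) and -1.24 (-2.28 to -0.33). Its log2 change was -0.94 (SE 0.38, edgeR's quasi-likelihood adjusted p = 0.20). Vim (vimentin) went the other way, with 8.47 CPM in VS and 8.37 in VI, against 12.2 in FS and 10.3 in FI (log2 change 0.41, SE 0.16, edgeR's quasi-likelihood adjusted p = 0.191).

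Des encodes desmin, an intermediate filament of stellate cells and of muscle. It was at 6.78 CPM in VS, 3.12 in FS, 3.37 in VI and 4.13 in FI. VS was the only high library, so that the log2 ratio was -1.12 in FS versus VS (-1.51 to -0.74) and -1.0 in VI versus VS (-1.41 to -0.62). VS is also the library with the skeletal muscle transcripts given above, and their part in the level of Des was not tested. Comparisons that leave VS out gave 0.29 (-0.14 to 0.74) in FI versus VI and 0.41 (-0.02 to 0.83) in FI versus FS.

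**Figure D4:**
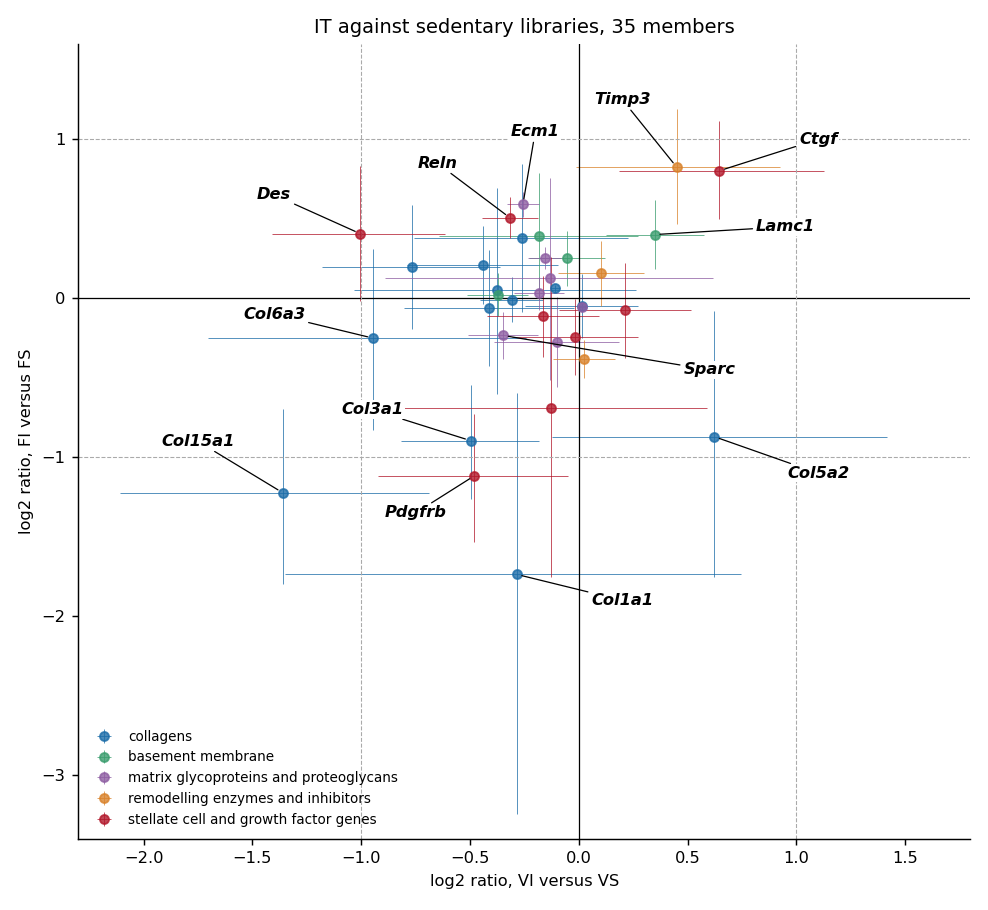
Log2 ratio of CPM for 35 genes in VI versus VS (horizontal) and in FI versus FS (vertical), with 95% counting intervals as lines, colours for the role of the gene and dashed lines at 2-fold. Col15a1, Col3a1 and Pdgfrb lie to the lower left, Ctgf, Timp3 and Lamc1 to the upper right, and Reln, Ecm1 and Des to the upper left.

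Levels of other cells that make matrix were summed over their markers (plot of summed marker levels). Markers of portal fibroblasts summed to 8.89 and 7.31 CPM in the vehicle libraries VS and VI and 6.23 and 5.46 CPM in the fibril libraries FS and FI, over 10 genes of which 4 passed 1 CPM. Those of smooth muscle, over 8 genes of which 3 passed 1 CPM, summed to 11.7 CPM in VS and 10.3 in VI, against 9.01 in FS and 8.43 in FI. Both sums were lower in the fibril libraries, as Acta2 was. The skeletal muscle sum was lower there too, at 1.02 CPM in FS and 0.827 in FI, against 79.95 in VS and 10.4 in VI. Its part in the values of Acta2 and of both marker sums was not tested. Markers of endothelial cells, which with stellate cells make type IV collagen in liver, summed to 267 CPM in VS, 233 in FS, 259 in VI and 275 in FI. They did not separate fibril from vehicle libraries. The part of these cell types in the differences of the list was not tested.

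**Figure D5:**
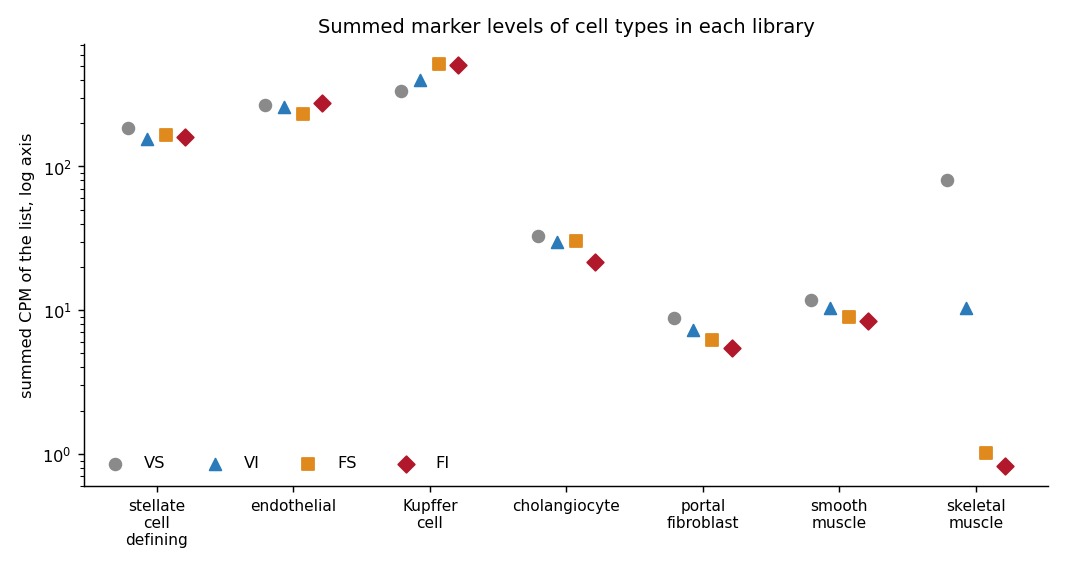
Summed CPM of marker lists for 7 cell types in each pooled library, on a log axis. The skeletal muscle sum falls from 79.95 CPM in VS to 0.827 CPM in FI, the Kupffer cell sum is highest in FS and FI with 516 and 508 CPM, and the stellate cell sum stays between 155 and 184 CPM.

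Genes of neighbouring pathways were taken from the same model. Of 30 other collagen genes, 9 could be fitted, and 1 fell with fibrils while 1 rose with IT. Over all genes, 4.97% were called for fibrils and 1.48% for IT, in either direction. Col27a1, a fibrillar collagen of cartilage, was at 46.8 and 22.8 CPM in the vehicle libraries VS and VI and 14.1 and 12.1 CPM in the fibril libraries FS and FI, with VS by far the highest, and fell by 1.35 on the log2 scale with fibrils (SE 0.20, edgeR's quasi-likelihood adjusted p = 0.015). Col13a1, a transmembrane collagen, was at 4.36 CPM in VS and 8.41 in VI, against 3.29 in FS and 9.38 in FI, and rose with IT by 1.23 (SE 0.21, adjusted p = 0.032 by edgeR's quasi-likelihood test). The third gene of that list by adjusted p was Col4a5, another type IV chain, at 1.27 CPM in VS, 1.73 in FS, 1.07 in VI and 2.23 in FI (log2 change with fibrils 0.74, SE 0.34, edgeR's quasi-likelihood adjusted p = 0.254). Among other collagens past 1 CPM, Col4a5, Col5a3 and Col20a1 had both fibril libraries above both vehicle libraries, as Col4a1 and Col4a2 did. Col27a1 and Col6a5 had both below, and Col6a5 reached 1 CPM only in VS. These too are orders of levels alone.

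Of 28 genes that fold, modify and export collagen, 22 could be fitted, and the smallest adjusted p of edgeR's quasi-likelihood test was 0.078, for Ppib, a prolyl isomerase of the endoplasmic reticulum. Ppib was at 36.4 and 41.1 CPM in the vehicle libraries VS and VI and 59.0 and 49.9 CPM in the fibril libraries FS and FI. Fkbp14 (log2 change with fibrils 0.74) and the coat protein gene Sec23a (0.33) followed, with edgeR's quasi-likelihood adjusted p of 0.097 and 0.139. Of 18 further basement membrane genes, 10 could be fitted, and none of the 3 with the smallest p passed the threshold. These were Smoc2, Lama4 and Lamb3, and Smoc2 was at 9.48 CPM in FS and between 1.48 and 2.29 CPM in the other libraries.

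Of the matrix proteases and plasmin inhibitors, Plaur, the urokinase receptor, was at 0.423 CPM in VS and 0.739 in VI, against 1.19 in FS and 1.69 in FI. It reached 1 CPM only in the fibril libraries, so it could be fitted only through the group where it was high. Both fibril libraries lay above both vehicle libraries for Plaur, an order that depends on that filter. The log2 change of 1.31 with fibrils (SE 0.40) did not pass the threshold, with an adjusted p of 0.101 by edgeR's quasi-likelihood test. Mmp15, a membrane-type metalloproteinase, was at 28.9 and 20.9 CPM in the sedentary libraries VS and FS and 18.2 and 15.3 CPM in the trained libraries VI and FI, and its log2 change of -0.56 with IT (SE 0.14) did not pass either (edgeR's quasi-likelihood adjusted p = 0.108). Of 28 genes of the TGF-beta pathway, 22 could be fitted, and Skil, a repressor of SMAD signalling, rose with fibrils by 0.59 (SE 0.13, adjusted p = 0.042 by edgeR's quasi-likelihood test). Skil was at 13.7 CPM in VS, 20.7 in FS, 18.2 in VI and 27.3 in FI, the same order of libraries as for Ctgf. Tgfbi and Smad3 followed with edgeR's quasi-likelihood adjusted p of 0.188 and 0.193.

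Of the further stellate cell markers, Hgf, the hepatocyte growth factor gene, was at 5.42 and 3.57 CPM in the vehicle libraries VS and VI and 6.94 and 6.32 CPM in the fibril libraries FS and FI. Its log2 change with fibrils was 0.57 (SE 0.21, edgeR's quasi-likelihood adjusted p = 0.164). Hand2, a transcription factor gene of stellate cells, was at 6.39 CPM in VS and 5.58 in VI, against 3.56 in FS and 4.46 in FI, with a log2 change of -0.59 (SE 0.22, edgeR's quasi-likelihood adjusted p = 0.172). The fibril libraries lay above the vehicle libraries for Hgf and below them for Hand2, and neither change passed the threshold.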

How the data were processed

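Liver RNA of 4 mice per group was sequenced as 1 pooled library for each of VS, VI, FS and FI. Per the labels and the submitters' processing notes, the authors used fastp 0.23.2, STAR 2.5 and HTSeq 0.6.1 on mm10, with no role or order given there, and whether counting used strand was not given in the sources used here. The deposited table holds raw read counts per gene and the deposited FPKM are the authors' values per length and depth, which the counts and gene lengths gave again. The 39 genes and all gene lists were chosen with earlier results of these data known.

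Counts were scaled with edgeR 4.0.16 (TMM, in R 4.3.3). Log2 ratios of a pair of libraries used a prior of 0.5 counts, a filter of 1 CPM in 1 library and exact conditional binomial 95% intervals. The additive model used edgeR's quasi-likelihood test (robust fit) with a filter of 1 CPM in 2 libraries and Benjamini-Hochberg adjustment over all 11760 genes. It was checked on simulated data with additive changes and a fixed spread between libraries. That check does not cover an interaction or the unmeasured spread of these pools. DESeq2 1.42.0 and limma 3.58.1 (voom) served as alternatives. Levels between genes were compared as FPKM. Genes named with values were those beyond 2-fold in any comparison, those called, those that define a subgroup and, of each neighbouring list, the 3 with the smallest adjusted p. Some genes named by this rule in the lists of matrix proteases and of further stellate cell markers are not reported here, and no count of calls is given for those lists. Gene positions are those of the deposited table, and 29 of 39 had the same start and end in GENCODE release M21. Promoter sequences are from RefSeq (GRCm38.p6).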

Additional observations from a re-analysis of the deposited data

Results flagged for a closer look

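For 5 genes, the difference in one pair of libraries and in the other pair had opposite signs with counting intervals off 0 in both, and the difference between the pairs was not tested, since each group is 1 pooled library. With IT, Ecm1 had a log2 ratio of -0.26 in vehicle and 0.59 in fibril mice, which is a difference of 0.85. Reln had -0.32 and 0.51, a difference of 0.82. Dcn had -0.16 and 0.25, a difference of 0.41, and Col18a1 had -0.11 and 0.06, a difference of 0.17. With fibrils, Reln had -0.57 in sedentary and 0.25 in trained mice, again a difference of 0.82, and Agrn had -0.24 and 0.15, a difference of 0.40. In each of these genes the VS library had the highest level of the 4 or the second highest.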

How the results depend on the processing

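No paired analysis was possible because each group is 1 pooled library with no replicate number. Leaving out VS put the additive model down to 1 factor, with the lone library of one arm assumed to vary like the other group. The 15 changes of single genes kept their direction in all 114 refitted values, of which 8 gained a call and 3, all of Ctgf with fibrils, lost it, at adjusted p of 0.109 with DESeq2, and by edgeR's quasi-likelihood test 0.278 with fibrils as the only factor and 0.837 without VS. The cause of the differences below was not tested.

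In FS versus VS, genes beyond 2-fold numbered 706, and 4567 without a filter, 353 at 5 CPM, 242 with FPKM (pseudocount 1) and 2140 at 1.5-fold, while the list's 1 gene became 2 without a filter, 0 with FPKM and 6 at 1.5-fold. In FI versus VI, the 553 genes became 4197, 229, 139 and 1702, and the list's 5 became 8, 2, 0 and 9, or 3 with a prior of 5 counts. In VI versus VS, the 419 genes became 4030, 144, 107 and 1418, and the list's 2 became 5, 1, 0 and 6, or 1 with that prior. In FI versus FS, the 521 genes became 4177, 203, 117 and 1647, and the list's 3 became 7, 1, 0 and 9. In the model, the 585 genes called for fibrils became 1557 without a filter, 8 with fibrils as the only factor and 0 without VS, and the list's 1 became 6, 0 and 0, and 0 with DESeq2. The 174 genes called for IT became 765 without a filter, 82 at 5 CPM, 0 with IT as the only factor and 39 without VS, and the list's 0 became 4 without a filter. Medians kept their sign under each alternative, except that of the list in FI versus FS, which ran from -0.05 to 0.03.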

Other observations

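Markers of cells that are not part of the matrix were low or differed between libraries. Neutrophil markers summed to 2.29 CPM in VS and 2.46 in VI, against 5.83 in FS and 3.97 in FI over 9 genes, of which 2 passed 1 CPM. Cholangiocyte markers summed to 32.7 CPM in VS, 30.5 in FS, 30.01 in VI and 21.6 in FI over 8 genes, of which 4 passed. Mesothelial markers summed to between 1.85 and 2.63 CPM, adipose markers to between 8.47 and 10.9 CPM and pancreas markers to between 0.424 and 2.57 CPM. Hepatocyte markers summed to 181400 and 186000 CPM in the vehicle libraries VS and VI and 196000 and 200500 CPM in the fibril libraries FS and FI. Among acute phase genes, the 3 with the smallest adjusted p were Saa2, Cd14 and Saa1. Saa2 was at 9.95 CPM in VS and 51.1 in VI, against 523 in FS and 1164 in FI, and Cd14 was at 3.30, 5.34, 11.2 and 23.4 CPM, which is the order of libraries seen for Ctgf. Whether these genes and Ctgf were linked was not tested.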
